A study of Homo sapiens with 9 samples.

Results

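The miR-30 family was followed here through 8 mature miRNAs, the 5p arms miR-30a-5p, miR-30b-5p, miR-30c-5p, miR-30d-5p and miR-30e-5p and the 3p arms miR-30a-3p, miR-30d-3p and miR-30e-3p. They were chosen by name from the 2652 miRNA names of the count table, and reads of a name listed at several loci were summed. All 8 were among the 408 miRNAs that passed the filter on low counts. The libraries were made to find miRNAs that bind the 3'UTR of PD-L1, the ligand by which tumor cells restrain T cells. Its assay, miTRAP, uses an RNA bait whose MS2 loops tether it to a resin coated with the MS2-binding protein, passes cell lysate over it and sequences the small RNA that is eluted. All libraries came from untreated, wild-type ES-2 cells, an established ovarian cancer line, and formed 3 groups of 3: the input, which is total RNA of the lysate, the MS2 control, which is RNA retained by an MS2 control bait, and the PD-L1 3'UTR group, which is RNA retained by the 3'UTR bait. Every library stems from this 1 cell line, and the study's methods state a larger amount of bait for the PD-L1 3'UTR than for the MS2 control, so bait sequence and bait amount cannot be told apart.

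A miRNA hairpin gives a 5p and a 3p strand, and the strand that stays in an Argonaute protein guides it to transcripts that pair with the seed, bases 2 to 8 of the miRNA. In the miR-30 family the 5p strand is usually the guide, while the 3p strand is usually the less abundant partner. The 5p guides are known as repressors of genes of epithelial-mesenchymal transition and of autophagy, and they are abundant in many epithelial tissues.

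The mature sequences are shown because the arms separate by seed, and the results below separate by arm and by single guide. They were taken from RefSeq (GRCh38.p14), which matched 5 of the 8 members by name, with the seed in capitals:
hsa-miR-30a-5p: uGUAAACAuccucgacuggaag
hsa-miR-30c-5p: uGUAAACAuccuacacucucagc
hsa-miR-30e-5p: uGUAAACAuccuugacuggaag
hsa-miR-30a-3p: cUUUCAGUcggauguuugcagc
hsa-miR-30e-3p: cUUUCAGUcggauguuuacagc
hsa-miR-30c-1-3p: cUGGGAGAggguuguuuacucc
hsa-miR-30c-2-3p: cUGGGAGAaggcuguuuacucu

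These 5p arms shared the seed GUAAACA and their first 12 bases. With positions counted from 1 at the 5′ end of the first-named miRNA, miR-30a-5p and miR-30e-5p differed only by C13U, and miR-30a-3p and miR-30e-3p, which share the seed UUUCAGU, only by G18A. Reads of these near-identical pairs could have been split unequally by the alignment, so the values of miR-30a and miR-30e are uncertain to that extent. The 3p strands of both miR-30c hairpins, which are no members but belong to the same hairpins, carried another seed, UGGGAGA.

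The hairpins with sequence lie in 2 pairs. MIR30E (chr1:40754355-40754446, plus strand) and MIR30C1 (chr1:40757284-40757372, plus strand) are 2837 bases apart in introns of NFYC, which encodes a subunit of a CCAAT-binding transcription factor. MIR30C2 (chr6:71376960-71377031, minus strand) overlaps an exon of the long noncoding RNA LINC00472, and MIR30A (chr6:71403551-71403621, minus strand) lies in an intron of it. miR-30c-5p therefore has more than 1 source, and its reads were divided almost evenly between the loci, with 49.5% to 50.8% at the chromosome 1 locus in each library, so the loci cannot be told apart by these counts.

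The total count was 3794799 to 5983577 per input library, 1156261 to 2236535 per MS2 control library and 672824 to 1237652 per PD-L1 3'UTR library. Across libraries, 3 counts equalled 0.675 to 4.02 CPM (a read count per 1e6 reads of the library, scaled by TMM factors). PD-L1 3'UTR replicate 1 stood apart by miRNAs of other tissues. Its 4 muscle miRNAs summed to 2101 CPM of the library total, against 113 and 31.7 in PD-L1 3'UTR replicates 2 and 3, 50.5 to 163.4 in the MS2 control and 1.19 to 3.16 in the input. Among defining markers, the muscle miRNA miR-206 had 469 counts there and 0 to 10 in each other library, the liver miRNA miR-122-5p had 227 against 0 and 1 in the other PD-L1 3'UTR libraries, 73, 127 and 53 in the MS2 control and 7 to 13 in the input, and the red-cell miRNA miR-451a had 1040 against 32 and 106, 130, 81 and 110, and 7 to 11. The MS2 control libraries thus also carried more of these miRNAs than the input, with miR-122-5p at 45.8 to 58.8 CPM of the library total against 1.17 to 2.57, and PD-L1 3'UTR replicate 1 at 183.4. The 6 blood miRNAs summed to 149.4 to 200.2 CPM in the input, 354.6 to 447.6 in the MS2 control and 606.6 to 1625 with the PD-L1 3'UTR bait, the 2 neuronal miRNAs to 154.8 to 185.7, 98.2 to 154.8 and 423.6 to 723.7, and the 5 epithelial miRNAs to 30.8 to 41.7, 63.0 to 97.4 and 41.5 to 269.9. The neuronal sum was nearly all miR-9-5p, and the epithelial miR-429 was at 0 in all libraries. Unlike miR-451a, the blood miRNA miR-144-3p had 0 counts in PD-L1 3'UTR replicate 1 and at most 1 in any library. The part of these miRNAs in the results was not tested, and members are given with and without PD-L1 3'UTR replicate 1.

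In the lysate the miR-30 family was dominated by miR-30a-5p. Of all input counts, 4.40% ± 0.204 (SD, n = 3) fell to the 8 members, of which the 5p arms held 3.87% ± 0.190 and the 3p arms 0.528% ± 0.0537. In these bulk libraries of 1 cell line, fewer cells with a miRNA and less of it per cell cannot be told apart. By mean level miR-30a-5p ranked 7th of all names, with 31145 ± 2902 CPM, and was followed by miR-30d-5p with 10864 ± 368, miR-30c-5p with 7193 ± 1000 and miR-30a-3p with 6011 ± 739. Below these came miR-30e-5p with 1262 ± 20.3, miR-30e-3p with 938 ± 87.6, miR-30b-5p with 571 ± 68.8 and miR-30d-3p with 24.9 ± 2.99 CPM. Of the neighbours in this order, only miR-30c-5p and miR-30a-3p overlapped between libraries. These levels were not corrected for the sequence preference of adapter ligation, which was not tested, so the order is one of reads.

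**Figure D1:**
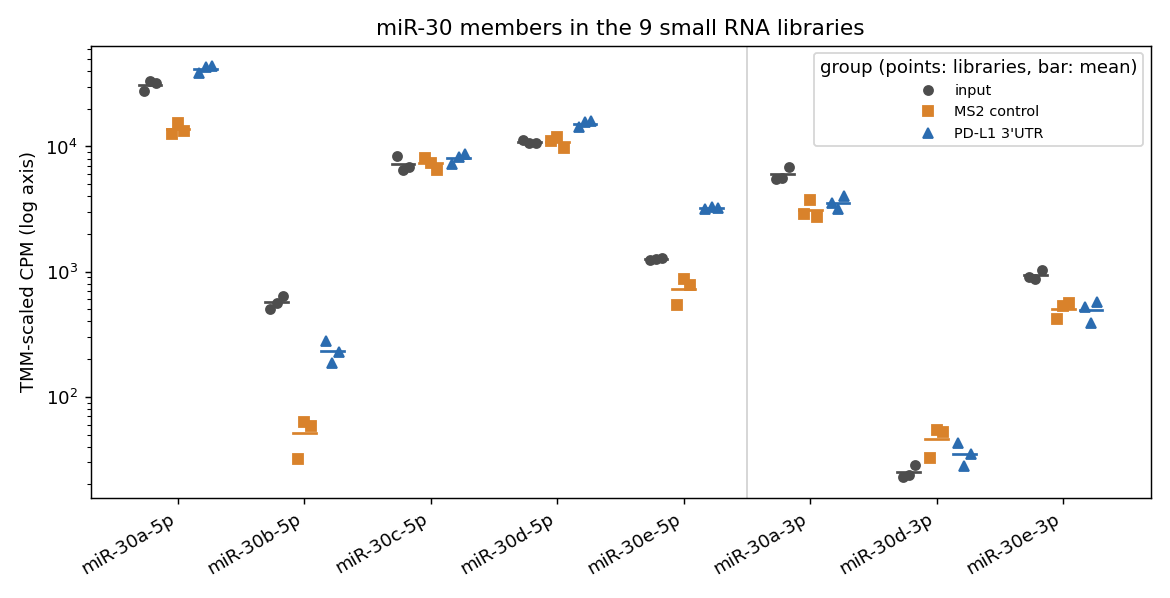
TMM-scaled CPM (log axis) of the 8 members in each library, with points for libraries and bars for group means, 3 libraries a group. miR-30a-5p, miR-30b-5p and miR-30e-5p had their lowest points in the MS2 control, whereas the 3 groups of miR-30c-5p overlapped.

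With the PD-L1 3'UTR bait, 4 of the 5 guides, miR-30a-5p, miR-30b-5p, miR-30d-5p and miR-30e-5p, were called higher than in the MS2 control. No member was called lower. These levels are relative to the other miRNAs of a library, so the amount of RNA retained by each bait was not measured. Across the 408 miRNAs, 31.4% were called higher and 28.7% lower in the same comparison (edgeR's quasi-likelihood test, adjusted p under 0.05), and 32.6% and 33.1% did not overlap between the groups in these directions. The same 4 guides were those without overlap. Summed over the 5 guides, the level was 32834 ± 2643 CPM in the MS2 control and 68597 ± 4666 with the PD-L1 3'UTR bait, a ratio of 2.09, and their median log2 fold change was 1.60 beside 0.02 for all miRNAs tested.

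miR-30a-5p, the leading guide, had 27822, 33174 and 32441 CPM in input replicates 1 to 3, 12632, 15434 and 13318 in the MS2 control and 38339, 43439 and 43580 with the PD-L1 3'UTR bait. The groups did not overlap, and the MS2 control was the lowest. The log2 fold change of the PD-L1 3'UTR over the MS2 control was 1.60 ± 0.12 (SE), with an adjusted p of 1.17e-06.

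miR-30e-5p, which differs from miR-30a-5p by a single base, showed a wider gap. It had 1248, 1252 and 1285 CPM in the input, 538, 872 and 785 in the MS2 control and 3143, 3305 and 3197 with the PD-L1 3'UTR bait. All PD-L1 3'UTR libraries were above all input libraries, which were above all MS2 control libraries. Its log2 fold change over the MS2 control was 2.14 ± 0.17 (adjusted p = 1.74e-06).

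miR-30b-5p was the scarcest guide. It had 506, 564 and 643 CPM in the input, 31.6, 63.0 and 59.0 in the MS2 control and 281, 188 and 230 with the PD-L1 3'UTR bait, where these values rest on 397, 140 and 317 counts. Here the PD-L1 3'UTR libraries fell between the other groups without overlap. The log2 fold change over the MS2 control was 2.18 ± 0.27 (adjusted p = 4.25e-05).

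miR-30d-5p and miR-30c-5p, the next most abundant guides, moved less. miR-30d-5p had 11287, 10622 and 10681 CPM in the input, 11048, 11913 and 9788 in the MS2 control and 14189, 15652 and 15880 with the PD-L1 3'UTR bait, so only the last stood apart. Its log2 fold change over the MS2 control was 0.48 ± 0.11 (adjusted p = 0.00321), and it lost the call without MS2 control replicate 3, at 0.39 with an adjusted p of 0.0534. miR-30c-5p had 8329, 6450 and 6798 CPM in the input, 8150, 7386 and 6487 in the MS2 control and 7276, 8309 and 8784 with the PD-L1 3'UTR bait. All 3 groups of miR-30c-5p overlapped, and the log2 fold change over the MS2 control was 0.15 ± 0.14 (adjusted p = 0.388), with a 95% interval from -0.17 to 0.46 that leaves room for a difference in either direction.

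None of the 3p members differed between the baits by the test. miR-30a-3p, the most abundant of them, had 5536, 5634 and 6862 CPM in the input, 2885, 3709 and 2747 in the MS2 control and 3512, 3181 and 3999 with the PD-L1 3'UTR bait. miR-30e-3p had 909, 868 and 1036 CPM in the input, 422, 528 and 557 in the MS2 control and 525, 387 and 575 with the PD-L1 3'UTR bait. In both, the trapped groups overlapped each other and lay below the input. miR-30d-3p, by contrast, was rare in all groups, with 22.9, 23.6 and 28.4 CPM in the input, 32.3, 53.9 and 52.1 in the MS2 control and 42.4, 28.1 and 34.8 with the PD-L1 3'UTR bait, and its lowest value rests on 21 counts. For the PD-L1 3'UTR over the MS2 control, the 95% intervals of the log2 fold change ran from -0.15 to 0.54 for miR-30a-3p, from -0.42 to 0.39 for miR-30e-3p and from -1.01 to 0.24 for miR-30d-3p. The 3p members summed to 3662 ± 545 CPM in the MS2 control and 4095 ± 506 with the PD-L1 3'UTR bait.

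The calls between the baits did not rest on PD-L1 3'UTR replicate 1, the library with the most muscle and liver miRNAs. The libraries that remained also held muscle miRNAs, at 50.5 to 163.4 CPM of the library total in the MS2 control and 113 and 31.7 in PD-L1 3'UTR replicates 2 and 3. Leaving out 1 library thus does not remove such miRNAs from the comparison. Without PD-L1 3'UTR replicate 1, the log2 fold change over the MS2 control was 1.69 for miR-30a-5p, 2.06 for miR-30b-5p, 0.57 for miR-30d-5p and 2.19 for miR-30e-5p, each still called, and 0.25 for miR-30c-5p (adjusted p = 0.179). The 3p members stayed uncalled without it, at 0.24 for miR-30a-3p, -0.51 for miR-30d-3p and -0.03 for miR-30e-3p.

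**Figure D2:**
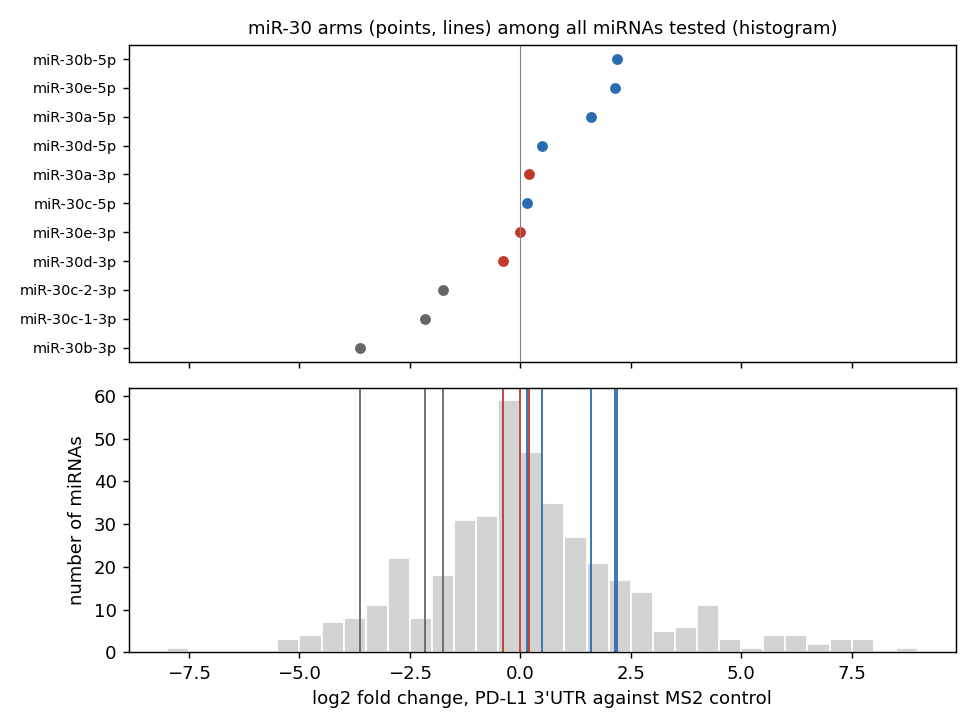
Log2 fold change of the PD-L1 3'UTR over the MS2 control for 11 miR-30 arms (upper panel, points; lower panel, vertical lines) and the histogram of all 408 miRNAs tested in bins along the same axis (lower panel, number of miRNAs). Blue marks 5p arms, red the 3p members and grey the other 3p arms, and the 5p arms run from 0.15 to 2.18 in a distribution that reaches 8.72.

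Within all 408 miRNAs, the guides were not at the extreme. The log2 fold change over the MS2 control was larger than that of miR-30b-5p for 65 miRNAs, than that of miR-30e-5p for 66 and than that of miR-30a-5p for 85. For miR-30d-5p it was larger in 160 and for miR-30c-5p in 193. The largest value among all miRNAs was 8.72, above that of every miR-30 guide.

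To compare the trapped miRNAs with those offered by the lysate, the PD-L1 3'UTR libraries were set against the input. This comparison uses the same PD-L1 3'UTR libraries as the one above. The guides miR-30a-5p, miR-30d-5p and miR-30e-5p were higher (3 members) and miR-30b-5p, miR-30a-3p and miR-30e-3p were lower (3 members), beside 34.1% and 32.4% of all miRNAs (37.3% and 37.5% without overlap). The log2 fold change over the input was 1.35 ± 0.17 for miR-30e-5p (adjusted p = 6.27e-05), 0.49 ± 0.11 for miR-30d-5p (adjusted p = 0.00277) and 0.42 ± 0.12 for miR-30a-5p (adjusted p = 0.0101). It was -1.29 ± 0.26 for miR-30b-5p (adjusted p = 0.00123), -0.75 ± 0.16 for miR-30a-3p (adjusted p = 0.00160) and -0.92 ± 0.18 for miR-30e-3p (adjusted p = 0.00126). miR-30e-5p and miR-30e-3p of the same hairpin thus lay on opposite sides of the input. miR-30c-5p, at 0.18 ± 0.14 (95% interval -0.14 to 0.49), and miR-30d-3p, at 0.50 ± 0.28 (-0.12 to 1.12), were not called.

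The scale of this comparison was open to choice. Scaling by library totals instead of TMM raised the median log2 fold change over the input by 0.57 for the PD-L1 3'UTR and by 0.63 for the MS2 control, and the share of calls that were higher from 51.3% to 68.1% and from 47.0% to 65.7%. Changes against the input are therefore relative to the bulk of miRNAs. With library totals, miR-30e-5p was at 1.92 and miR-30b-5p at -0.72 for the PD-L1 3'UTR against the input, both still called, while miR-30a-3p and miR-30e-3p lost the call at -0.18 and -0.35 and miR-30c-5p and miR-30d-3p gained one at 0.74 and 1.08. The call of miR-30a-5p was lost when input replicate 1, 2 or 3 was left out, at 0.21 to 0.37, without MS2 control replicate 3, and without PD-L1 3'UTR replicate 2 or 3. That of miR-30d-5p was lost without input replicate 2 or 3 or MS2 control replicate 3. Each of these calls was also lost with no filter on low counts and with 1 locus row per name. Without PD-L1 3'UTR replicate 1 the same 6 members were called, with miR-30a-5p at 0.43, miR-30d-5p at 0.49, miR-30e-5p at 1.31, miR-30b-5p at -1.50, miR-30a-3p at -0.80 and miR-30e-3p at -1.01.

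**Figure D3:**
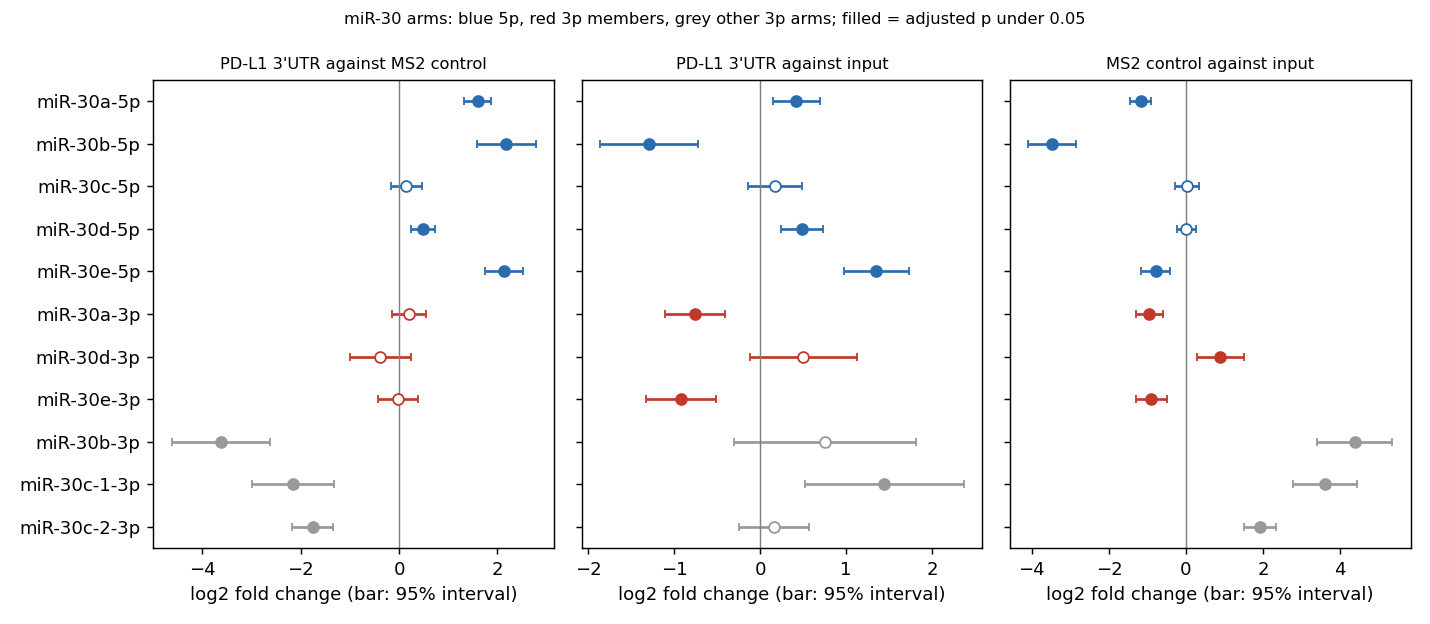
Log2 fold changes with 95% intervals for 11 miR-30 arms in the 3 comparisons, each panel with its own axis. Blue marks 5p arms, red the 3p members and grey the other 3p arms, and filled points passed an adjusted p of 0.05. miR-30a-5p, miR-30b-5p and miR-30e-5p lay above 0 against the MS2 control and below 0 for the MS2 control against the input, comparisons that share the MS2 control libraries.

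The MS2 control bait itself did not return the family in the proportions of the lysate. Against the input, 5 of the 8 members were lower, miR-30a-5p, miR-30b-5p, miR-30e-5p, miR-30a-3p and miR-30e-3p, and miR-30d-3p was higher, beside 37.0% lower and 32.8% higher among all miRNAs (39.7% and 35.8% without overlap). miR-30b-5p showed the largest difference among the members, at -3.47 ± 0.28 on the log2 scale (adjusted p = 2.21e-06), and 389 of the 408 miRNAs had a larger value. miR-30a-5p was at -1.17 ± 0.12 (adjusted p = 1.32e-05) and miR-30e-5p at -0.79 ± 0.17 (adjusted p = 0.00178). The comparison between the baits uses the same MS2 control libraries, so a low level in them enters both comparisons, and opposite signs are not independent results. With library totals miR-30a-5p and miR-30b-5p kept their calls at -0.55 and -2.86, whereas miR-30e-5p lost its call at -0.17.

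The other members were split in the MS2 control. miR-30a-3p was at -0.95 ± 0.16 (adjusted p = 3.29e-04) and miR-30e-3p at -0.90 ± 0.18 (adjusted p = 0.00125) against the input, and both lost the call with library totals, at -0.32 and -0.28. miR-30d-3p was at 0.89 ± 0.27 (adjusted p = 0.0140), a call lost without input replicate 1 or 3 or MS2 control replicate 3. miR-30c-5p and miR-30d-5p were at 0.03 ± 0.14 and 0.01 ± 0.11, and with library totals both were called higher, at 0.66 and 0.64.

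The ratio of the arms of 1 hairpin is taken within a library, so it does not depend on how libraries are scaled. It was higher with the PD-L1 3'UTR than with the MS2 control bait in all 4 miR-30 hairpins whose arms share a name and passed the filter, beside 38.6% of the 101 such hairpins in the table (33.7% lower). The median difference over the 101 hairpins was 0.22 on the log2 scale. For miR-30e the 5p arm had 1.37, 1.44 and 1.24 reads for each 3p read in the input, 1.27, 1.65 and 1.41 in the MS2 control and 5.99, 8.52 and 5.56 with the PD-L1 3'UTR bait. The input and the MS2 control overlapped, and the PD-L1 3'UTR group lay far above both, by 2.19 ± 0.22 on the log2 scale over the MS2 control (limma, adjusted p = 7.65e-08) and 2.28 ± 0.22 over the input (adjusted p = 5.88e-08).

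miR-30a showed the same order with a smaller gap. Its arm ratio was 5.03, 5.89 and 4.73 in the input, 4.38, 4.16 and 4.85 in the MS2 control and 10.9, 13.7 and 10.9 with the PD-L1 3'UTR bait. The log2 difference was 1.40 ± 0.22 over the MS2 control (adjusted p = 1.59e-05) and 1.18 ± 0.22 over the input (adjusted p = 1.18e-04). For neither miR-30a nor miR-30e was the MS2 control called against the input, with 95% intervals of the log2 difference from -0.68 to 0.24 and from -0.38 to 0.56. Without PD-L1 3'UTR replicate 1, the differences over the MS2 control were 1.45 for miR-30a and 2.26 for miR-30e.

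In miR-30b the MS2 control stood apart from both other groups. The arm ratio of miR-30b was 168, 176 and 90.7 in the input, 0.365, 0.598 and 0.704 in the MS2 control and 22.7, 31.2 and 48.8 with the PD-L1 3'UTR bait. Its 3p arm had only 11, 9 and 31 counts in the input and 17, 4 and 6 with the PD-L1 3'UTR bait, so these ratios are imprecise. In the MS2 control, reads of the 3p arm thus outnumbered those of the guide in every library. The log2 difference of the PD-L1 3'UTR was 5.93 ± 0.51 over the MS2 control (adjusted p = 7.90e-09) and -2.09 ± 0.51 over the input (adjusted p = 0.00155). miR-30d had arm ratios of 491, 447 and 375 in the input, 339, 220 and 186 in the MS2 control and 332, 543 and 452 with the PD-L1 3'UTR bait, over 21 to 136 counts of miR-30d-3p per library. The trapped groups of miR-30d overlapped, and its difference over the MS2 control, 0.85 ± 0.34 (adjusted p = 0.0335), lost the call without MS2 control replicate 2 or 3 or PD-L1 3'UTR replicate 2 or 3.

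For miR-30c the 5p arm was set over the sum of both its 3p strands, a pair added after the values were seen. The arm ratio was 68.2, 59.0 and 62.9 in the input, 23.3, 15.5 and 12.8 in the MS2 control and 59.6, 56.6 and 71.1 with the PD-L1 3'UTR bait. The PD-L1 3'UTR group overlapped the input and lay above the MS2 control by 1.90 ± 0.25 on the log2 scale (adjusted p = 1.69e-06), beside 39.2% higher and 33.3% lower of the 102 hairpins then tested. Against the input, this pair was not called for the PD-L1 3'UTR (95% interval -0.54 to 0.49, beside 38.2% higher and 30.4% lower) and was lower in the MS2 control, at -1.93 ± 0.25 (adjusted p = 1.84e-06, beside 34.3% in each direction).

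Of the 101 hairpins with arms of 1 name, 38.6% were higher and 30.7% lower with the PD-L1 3'UTR bait than in the input, and 34.7% and 33.7% with the MS2 control bait, where miR-30b (-8.02 ± 0.51, adjusted p = 2.07e-10) and miR-30d (-0.86 ± 0.34, adjusted p = 0.0348) were called lower. The call of miR-30d was lost without input replicate 1 or 2 or MS2 control replicate 2 or 3, at -0.84 to -0.67 (adjusted p = 0.0796 to 0.134).

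**Figure D4:**
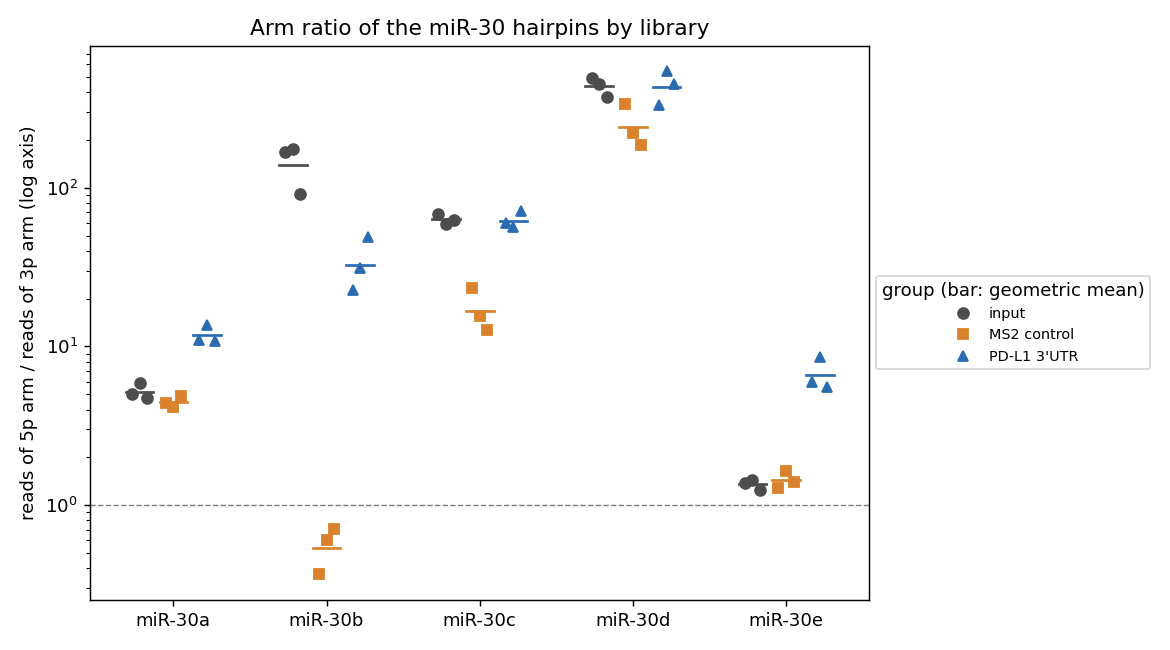
Reads of the 5p arm for each read of the 3p arm (log axis) of 5 miR-30 hairpins in each library, with points for libraries, bars for geometric means and a dashed line at 1. The PD-L1 3'UTR libraries stood above both other groups for miR-30a and miR-30e, and the MS2 control libraries fell below 1 for miR-30b.

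The 3p arms of the miR-30 hairpins outside the members moved the opposite way between the baits. miR-30b-3p had 2.89, 3.03 and 6.98 CPM in the input, 87.2, 105 and 83.9 in the MS2 control and 12.0, 5.36 and 4.35 with the PD-L1 3'UTR bait, which rest on 17, 4 and 6 counts. miR-30c-2-3p had 120, 107 and 106 CPM in the input, 329, 444 and 481 in the MS2 control and 115, 139 and 119 with the PD-L1 3'UTR bait. miR-30c-1-3p was the rarest, with 1.84 to 2.36 CPM in the input, 20.7 to 30.5 in the MS2 control and 4.35 to 6.70 with the PD-L1 3'UTR bait. In each of the 3, the MS2 control libraries stood above all others. Across the 408 miRNAs, 33.1% were lower without overlap with the PD-L1 3'UTR than with the MS2 control bait (28.7% called). In the MS2 control against the input, 35.8% were higher without overlap (32.8% called). The log2 fold change of the PD-L1 3'UTR over the MS2 control was -3.62 ± 0.45 for miR-30b-3p (adjusted p = 4.73e-05), -2.16 ± 0.37 for miR-30c-1-3p (adjusted p = 5.13e-04) and -1.75 ± 0.19 for miR-30c-2-3p (adjusted p = 1.53e-05). Against the input, the MS2 control was higher by 4.38 ± 0.44, 3.60 ± 0.37 and 1.91 ± 0.19, in the same order. The PD-L1 3'UTR was called against the input for miR-30c-1-3p, at 1.45 ± 0.42 (adjusted p = 0.0106), beside 34.1% of all miRNAs. That call rests on 9, 5 and 6 counts with the PD-L1 3'UTR bait and 7, 7 and 9 in the input. It was lost without input replicate 1 or 3 or PD-L1 3'UTR replicate 1. Without PD-L1 3'UTR replicate 1 the differences between the baits were -4.24, -2.23 and -1.67.

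The make-up of the 5p reads was then compared, which again is a ratio within libraries. miR-30a-5p gave 60.9% ± 3.85 (SD, n = 3) of the 5p reads in the input, 42.0% ± 2.62 in the MS2 control and 60.9% ± 0.330 with the PD-L1 3'UTR bait. miR-30d-5p gave 21.3% ± 1.41, 33.2% ± 0.982 and 22.2% ± 0.191, and miR-30c-5p 14.1% ± 2.44, 22.4% ± 2.41 and 11.8% ± 0.386. The mean shares of these 3 with the PD-L1 3'UTR bait lay near those of the input, and the MS2 control stood apart. miR-30e-5p gave 2.47% ± 0.0658, 2.23% ± 0.496 and 4.70% ± 0.257, and miR-30b-5p 1.12% ± 0.110, 0.156% ± 0.0512 and 0.343% ± 0.0918.

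**Figure D5:**
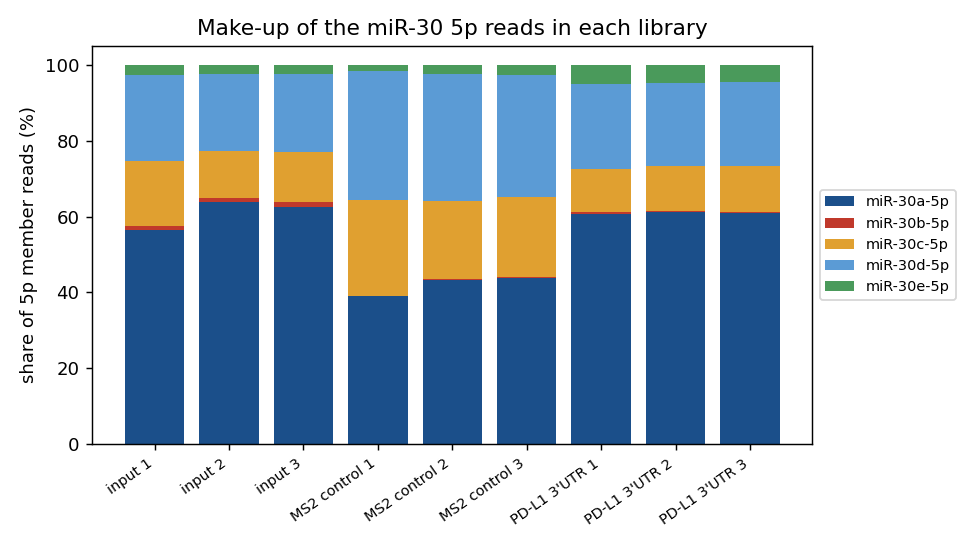
Share (%) of each of the 5 guides in the summed 5p reads of each library, as stacked bars that add up to 100%. miR-30a-5p took 39.0% to 43.8% in the MS2 control and 56.6% to 63.7% elsewhere, and the share of miR-30e-5p was largest in the PD-L1 3'UTR libraries.

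Each guide was tested against the sum of the others, on the log2 scale. With the 3 guides whose seed could be read, the difference of the PD-L1 3'UTR from the MS2 control was 1.11 ± 0.16 for miR-30a-5p (limma, adjusted p = 5.07e-04), 0.93 ± 0.16 for miR-30e-5p (adjusted p = 0.00119) and -1.49 ± 0.18 for miR-30c-5p (adjusted p = 1.69e-04), beside 27.2% higher and 26.2% lower among the 103 miRNAs that share a seed. The shares of guides with the same seed thus differed between the baits. From the input, the PD-L1 3'UTR differed for miR-30e-5p, by 0.97 ± 0.16 (adjusted p = 7.07e-04), and was not called for miR-30a-5p (95% interval -0.37 to 0.36) or miR-30c-5p (-0.70 to 0.11), beside 30.1% higher and 19.4% lower. In the MS2 control, miR-30c-5p was above the input by 1.19 ± 0.18 (adjusted p = 4.95e-04) and miR-30a-5p was at -1.11 ± 0.16 (adjusted p = 3.93e-04), beside 34.0% higher and 22.3% lower, and miR-30e-5p was not called (95% interval -0.31 to 0.40).

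With all 5 guides taken as 1 family by name, a choice made after seeing which sequences were at hand, all 5 were called between the baits, beside 27.6% higher and 26.7% lower of 105 miRNAs. The differences were 1.11 ± 0.13 for miR-30a-5p, 1.16 ± 0.28 for miR-30b-5p, -1.10 ± 0.15 for miR-30c-5p, -0.80 ± 0.08 for miR-30d-5p and 1.14 ± 0.16 for miR-30e-5p. Shares of 1 sum depend on each other, and miR-30d-5p, lower here by share, was called higher by level, at 0.48. From the input, miR-30e-5p was higher by 0.96 ± 0.16 (adjusted p = 8.44e-04) and miR-30b-5p lower, at -1.74 ± 0.28 (adjusted p = 7.43e-04), beside 29.5% and 20.0%. In the MS2 control against the input, the shares of miR-30d-5p and miR-30c-5p were higher, by 0.88 ± 0.08 and 0.82 ± 0.15. Those of miR-30a-5p and miR-30b-5p were at -1.11 ± 0.13 and -2.90 ± 0.28, beside 35.2% higher and 23.8% lower. By level, miR-30d-5p and miR-30c-5p were not called in this comparison, at 0.01 and 0.03. The 3p members with sequence, miR-30a-3p and miR-30e-3p, were not called against each other in any comparison, with a difference between the baits of 0.23 ± 0.15 for miR-30a-3p (95% interval -0.11 to 0.57).

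Since seed pairing is how a guide is known to find a 3'UTR, the seeds were searched in the annotated CD274 (PD-L1) 3'UTR on the sense strand, 2692 bases in GRCh37 (chr9:5467863-5470554). For GUAAACA, none of the 8mer TGTTTACA, the 7mer-m8 TGTTTAC, the 7mer-A1 GTTTACA and the 6mer GTTTAC was found, letters that 10.9%, 23.6%, 21.9% and 43.4% of 6480 windows of this length in other 3'UTRs hold. For the 3p seed UUUCAGU, there was 1 8mer, ACTGAAAA (12.8% of windows), at chr9:5467997-5468004 in the 3'UTR exon, with this context in lower case and the 8mer in capitals:
CD274 8mer: gcccaagcACTGAAAAtggaacct

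The 8mer contains the 7mer-m8 ACTGAAA (32.1% of windows) and the first of 2 matches to the 7mer-A1 CTGAAAA (36.9% of windows), whose other match lies at chr9:5469168-5469174. Both 6mers CTGAAA (75% of windows) lie within these. miR-30a-3p and miR-30e-3p, whose seed has matches in this 3'UTR, were not called between the baits. Of the 3 guides whose seed could be read and has none, miR-30a-5p and miR-30e-5p were called higher. miR-30c-5p was not called, and 31.4% of all miRNAs were called higher. Whether seed matches bear on these levels was not tested. Such letters are a description of the annotated 3'UTR, and the stretch that the bait carried was not analysed here.

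Guides of other families were set beside these by lists. All 3 tested miR-181 guides were called higher with the PD-L1 3'UTR than with the MS2 control bait (median log2 fold change 1.89). Of 3 miR-29 guides 1 was higher (median 0.28), and of the 2 miR-26 guides 1 was higher and 1 lower (median 0.82). Among all miRNAs 31.4% were higher and 28.7% lower. Against the input, 1 of 3 miR-181, 0 of 2 miR-26 and 0 of 3 miR-29 guides were higher with the PD-L1 3'UTR bait. There 1 miR-26 guide was lower, beside 34.1% higher and 32.4% lower among all miRNAs. In the MS2 control, 3 of 3 miR-181, 2 of 2 miR-26 and 2 of 3 miR-29 guides were lower than in the input, beside 37.0% of all miRNAs. These lists are too short to set against such shares.

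The miRNAs outside the family whose pattern over the 9 libraries was most like the mean log2 CPM of the 5p members were miR-15b-5p (Pearson's r = 0.988), miR-26b-5p (0.987), miR-23a-3p (0.981), miR-16-5p (0.979) and miR-181b-5p (0.978). All of them were low in the MS2 control, as miR-23a-3p with a mean of 4429 CPM in the input, 252 in the MS2 control and 6019 with the PD-L1 3'UTR bait. For the 3p members they were miR-582-5p (0.934), miR-331-3p (0.897), miR-452-3p (0.878), miR-3909 (0.852) and let-7f-1-3p (0.845), which were lower in both trapped groups than in the input, as miR-582-5p with 38.1, 7.10 and 8.79 CPM. These coefficients describe 9 libraries in 3 groups that share their depth and scaling, and they were not tested.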

How the data were processed

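The 9 single-end small RNA libraries of ES-2 cells were assigned to groups and replicate numbers by the sample titles. The authors deposited 1 table of unnormalized counts, whole numbers in each of 2883 rows, with 1 row for each locus of a mature miRNA. The authors' processing notes name cutadapt 1.18, Bowtie2 2.2.6, featureCounts 1.6.3 and hg38, and the methods name miRBase mature miRNAs. How reads with several loci were treated was not given in the sources used here.

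Counts were summed by name. miRNAs were kept by filterByExpr, scaled by TMM factors (input 0.743 to 0.783, MS2 control 1.13 to 1.25, PD-L1 3'UTR 1.11 to 1.14) and fitted over all 9 libraries with edgeR 4.0.16 (glmQLFit, glmQLFTest, two-sided, Benjamini-Hochberg over 408 miRNAs, threshold 0.05) in R 4.3.3. The biological coefficient of variation was 31.1%. Log2 ratios of arms, and of a miRNA to the others of its seed, used counts plus 0.5 and limma 3.58.1. Standard errors (SE) are of log2 values. In simulated PD-L1 3'UTR against MS2 control counts of 408 miRNAs, with 200 changed by 2 on the log2 scale, edgeR recovered 90.5%, and 3.11% of its calls were false. For 101 arm ratios with 25 changed, limma recovered 82.4%, and 5.74% were false. These rates are for changes of 2 on the log2 scale and do not cover the smaller differences called among the members. Intervals and floors of 3 counts cover counting or replicate error only, since PCR reads are not independent molecules. All replicate pairs differed beyond sampling noise (chi-square per degree of freedom 10.4 to 191). The study's methods name biological triplicates as the minimum for all experiments, but the labels do not say whether these replicates were separate cultures. The p-values therefore measure the spread between these libraries, which may be technical.

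The members and lists were chosen with earlier results of these data known. Named were the 8 members, the 3 other 3p arms of their hairpins, and for each arm the 5 miRNAs with the highest Pearson r. Seed shares of windows came from GENCODE transcripts (GRCh37), and 2363 of 2652 names matched a RefSeq sequence. Alternatives were DESeq2 size factors, library totals, DESeq2 1.42.0, a fit limited to the groups compared, no filter on low counts, a minimum mean of 10 CPM, a replicate block, 1 locus per name, another pseudocount, filter or variance prior for ratios, and leaving out each library. The 6mer search, the miR-30c pair and the family by name were added later.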

Additional observations from a re-analysis of the deposited data

How the results depend on the processing

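Between the baits, the calls of the members kept their direction and side of the threshold under DESeq2's size factors, library totals, DESeq2, both other filters, only the groups compared, the replicate block and 1 locus row per name, and the number called higher was 3 to 4 when 1 library was left out. Comparisons with the input moved more. For the PD-L1 3'UTR, 3 members higher became 5 with library totals, 1 with no filter, 1 with 1 locus row and 1 to 3 on leaving out a library (1 without input replicate 2 or 3 or MS2 control replicate 3), 3 lower became 1 with library totals, and all 132 miRNAs lower became 201 with no filter. For the MS2 control, 1 member higher became 3 with library totals, 0 with no filter and 0 to 1 on leaving out a library (0 without input replicate 1 or 3 or MS2 control replicate 3), 5 lower became 2 with library totals, and 2 miR-30 arm ratios called became 1 to 2. Library totals shift all values by construction, and no filter raised the number tested from 408 to 1500. The cause of the other moves was not tested.

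Values near 0 that changed sign were uncalled before and after the change. With no filter, miR-30c-5p was at -0.083 and miR-30c-2-3p at -0.094 for the PD-L1 3'UTR against the input, and miR-30c-5p at -0.24 and miR-30d-5p at -0.26 for the MS2 control against it. With 1 locus row these last were at -0.12 and -0.13, with only the groups compared miR-30d-5p was at -0.025, and with the family by name the share of miR-30e-5p was at -0.18. Leaving out libraries gave -0.15 to 0.11 for miR-30e-3p between the baits, -0.035 to 0.20 for miR-30c-5p and -0.050 to 0.17 for miR-30c-2-3p in the PD-L1 3'UTR against the input, and -0.16 to 0.040 for miR-30c-5p and -0.17 to 0.0097 for miR-30d-5p in the MS2 control against it. Arm ratios ranged from -0.17 to 0.19 for miR-30d (PD-L1 3'UTR against input) and -0.011 to 0.18 for miR-30e (MS2 control against input). Shares ranged from -0.17 to 0.11 for miR-30a-5p (PD-L1 3'UTR against input) and, for the MS2 control against input, from -0.066 to 0.24 for miR-30e-5p (called without MS2 control replicate 1, adjusted p = 0.0426), -0.14 to 0.11 for miR-30a-3p and -0.11 to 0.14 for miR-30e-3p.

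Whether replicate numbers pair the libraries was not settled. Deviations of same-numbered libraries correlated from -0.173 to 0.130, and those of differently numbered libraries from -0.124 to 0.190. Between the MS2 control and the PD-L1 3'UTR, however, same-numbered libraries were at 0.130, 0.066 and 0.099, and differently numbered ones at -0.121 to 0.030. With the replicate block 126 miRNAs were higher and 117 lower between the baits, 4 members among the higher, and of 90 results 0 changed call or direction.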
